A study of Mus musculus with 16 samples.

Results

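The kallikrein 1 family of the mouse was followed here through whole kidneys of embryos at embryonic day 17.5, on 2-colour Agilent arrays of 4 genotypes. Its members were taken as Klk1, Klk1b3, Klk1b4, Klk1b5, Klk1b11, Klk1b21, Klk1b22, Klk1b24, Klk1b26 and Klk1b27, with every probe whose RefSeq accession belongs to one of them. These were 11 probes for 10 genes, out of 56605 probes and 22911 named genes. The family was chosen by its measured log2 ratios: several members had been seen higher in 1 genotype, Ezh1-het, than in controls, so values of that comparison are a description and carry no test here. The Ezh2-KO group (labelled EZH2-KO & EZH1-WT) had lost Ezh2 conditionally from Six2-positive nephron progenitors and kept both Ezh1 alleles. The Ezh1-het group carried the same Ezh2 deletion and lacked 1 germline Ezh1 allele, the double knockout carried that deletion and lacked both Ezh1 alleles, and the control group was wild type. Each group had 4 arrays, and all mice were C57BL/6. The sample was labelled with Cy5 on every array, and Cy3 always labelled the RNA of control 1, so control 1 was set against itself. The Ezh2 deletion was limited to progenitors and what descends from them, whereas the RNA came from all cells of the kidney. In such bulk RNA, fewer cells of a type and less RNA per cell cannot be told apart. The labels call the arrays biological replicates.

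Tissue kallikreins are secreted serine proteases. Klk1, the kallikrein of kidney, pancreas and salivary gland, cuts kininogens to release kinins, which widen vessels and promote sodium excretion through the bradykinin receptors, and in the adult kidney it is made chiefly by the connecting tubule. Mice carry many further copies, the Klk1b genes, known mostly from the submandibular gland, where several are controlled by androgen. Ezh2 and Ezh1 are the alternative methyltransferases of the Polycomb complex PRC2, which places the repressive methyl mark on lysine 27 of histone H3.

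The genes lie side by side on chromosome 7. In RefSeq's GRCm38.p6 tables, 14 Klk1-type promoters followed each other on the plus strand in the order Klk1b8, Klk1b1, Klk1b9, Klk1b11, Klk1b26, Klk1b27, Klk1b21, Klk1b22, Klk1b16, Klk1b24, Klk1b3, Klk1b4, Klk1b5 and Klk1. All 10 members had an entry of 300 bases, from 250 before to 50 after the annotated start. The stretches below show how alike these copies are near the annotated start of transcription. They come from members whose probes varied widely in the kidneys (Klk1b5, Klk1b26, Klk1b4), varied less (Klk1b22, Klk1b21) or gave no signal above background (Klk1b27). Capitals mark the motif TTTAAA, which reads the same on both strands. Counted from the annotated start, it began at -42 in Klk1b5, -26 in Klk1b26, -48 in Klk1b4, -40 in Klk1b22 and -17 in Klk1b27. In Klk1b21 it began at 5, after that start.
Klk1b5: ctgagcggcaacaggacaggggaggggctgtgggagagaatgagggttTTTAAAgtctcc
Klk1b26: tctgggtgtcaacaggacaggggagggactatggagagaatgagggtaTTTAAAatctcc
Klk1b4: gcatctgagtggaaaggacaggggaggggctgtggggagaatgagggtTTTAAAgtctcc
Klk1b22: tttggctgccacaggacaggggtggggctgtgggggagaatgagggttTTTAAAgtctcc
Klk1b21: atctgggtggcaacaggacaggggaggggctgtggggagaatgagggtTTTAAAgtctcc
Klk1b27: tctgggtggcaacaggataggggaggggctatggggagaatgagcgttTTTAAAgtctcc

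The 60 bases are those of chr7:44216384-44216443 for Klk1b5, chr7:44012604-44012663 for Klk1b26 and chr7:44207337-44207396 for Klk1b4 (GRCm38.p6, plus strand). Those of Klk1b22 are chr7:44112585-44112644, those of Klk1b21 chr7:44102248-44102307 and those of Klk1b27 chr7:44052225-44052284. TTTAAA lay in the windows of 9 of the 10 members and of all 4 of the other Klk1-type genes, Klk1b1, Klk1b8, Klk1b9 and Klk1b16. Of all 32851 RefSeq promoter windows of that length, 13.2% held it. The run GAGAATGAG, searched on both strands, lay in 9 of 10 member windows and in 0.417% of all windows. The window of Klk1's annotated start ended 3 bases after that run and held no TTTAAA, and that of Klk1b3 held TTTAAA without the run. Both motifs were chosen after the sequences were seen. The usual TATA box letters TATAAA, searched on both strands, lay in none of the 10 windows and in 13.6% of all. The androgen response element consensus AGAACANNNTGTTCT, a palindrome, lay in none of the 10 and in 0.00913% of all windows. Member windows held 0 to 3 CpG dinucleotides (median 2), against a median of 7 over all windows, and 31.38% of all windows held at most 3. Against the Klk1b5 window, the local alignments of the other members were between 83.6% (Klk1b21) and 91.3% (Klk1b4) identical. Both motifs were present in windows of members that varied widely, of members that varied less and of members with no signal above background.

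Each of the 2 slides held 2 arrays of all 4 genotypes. The share of probes that the software marked as well above background in Cy5 was lowest in control 2 (53.1%) and highest in Ezh2-KO 4 (63.4%), and no probe was saturated. The number of arrays limits the precision. The targeted genes matched the labels in 1 Ezh2 probe and in the Ezh1 probe. Of the 5 measured Ezh2 probes, the one that moved most, chosen after its values were seen, had log2 ratios of Cy5 over Cy3 averaging -3.32 ± 0.34 in Ezh2-KO, -3.43 ± 0.31 in Ezh1-het, -3.09 ± 0.28 in double knockouts, against 0.09 ± 0.43 in controls (SD, n = 4 each). The other Ezh2 probes fell far less against controls, with log2 differences of -0.27 to -0.41 in Ezh2-KO, none passing at limma's adjusted p under 0.05. These differences were -0.34 to -0.58 in Ezh1-het and -0.22 to -0.53 in double knockouts, with at least 1 probe passing in each. The Ezh1 probe averaged 0.05 ± 0.33 in Ezh2-KO, -1.13 ± 0.20 in Ezh1-het, -4.55 ± 0.08 in double knockouts, against -0.08 ± 0.26 in controls (SD, n = 4 each).

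Probes entered the tests if at least 4 arrays had them well above background in the Cy5 channel. Of the 11 family probes 8 did, 1 each for Klk1, Klk1b3, Klk1b4, Klk1b5, Klk1b21, Klk1b22, Klk1b24 and Klk1b26. These 8 were also above background on all 16 arrays in Cy3, the RNA of control 1. The probes of Klk1b11 and Klk1b27, and a second Klk1b26 probe, were well above background on 0 of 16 arrays in either channel. Their log2 ratios stayed between -0.20 and 0.24, and they were not tested. The 2 Klk1b26 probes thus disagreed, and all values of Klk1b26 below are those of the probe with signal. Paralogs of this family are similar enough that a probe may also take up signal of its neighbours. Probe sequences were not used here, so each value is that of a probe named after a gene.

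Klk1 varied by more than a log2 unit within the Ezh2-KO group and lay highest in Ezh1-het. Its log2 ratios were -0.71, 0.08, -0.14 and 1.41 in Ezh2-KO, 1.65, 1.31, 0.43 and 1.25 in Ezh1-het, -0.25, -0.41, -0.46 and -0.85 in double knockouts, and -0.08, 0.18, -0.81 and -0.44 in controls (replicates 1 to 4). All 4 Ezh1-het kidneys lay above all controls and all double knockouts, while the Ezh2-KO kidneys spanned nearly the whole range, with replicate 4 among the Ezh1-het values. Double knockouts and controls overlapped. Klk1 was not well above background on Ezh2-KO 1 and double knockout 4, so those values are only bounds.

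Klk1b5 had the widest range, 4.18 log2 units over the 16 arrays. Its log2 ratios were -1.23, 0.12, -0.23 and 1.67 in Ezh2-KO, 2.13, 1.45, 0.61 and 1.47 in Ezh1-het, -0.26, -1.13, -0.89 and -2.05 in double knockouts, and -0.04, 0.36, -1.95 and -0.64 in controls. The lowest values thus belonged to 1 double knockout and 1 control, control 3. Klk1b26, known in mice as a prorenin-converting enzyme, ranged over 3.85 units. Its log2 ratios were -1.21, 0.14, 0.08 and 1.71 in Ezh2-KO, 2.09, 1.39, 0.53 and 1.53 in Ezh1-het, -0.33, -0.89, -0.92 and -1.68 in double knockouts, and -0.05, 0.16, -1.75 and -0.73 in controls. For both genes the same arrays were high (Ezh1-het 1 and Ezh2-KO 4) and low (double knockout 4, control 3 and Ezh2-KO 1). Double knockout 4 was not well above background for either gene, nor was control 3 for Klk1b26, so those values are only bounds.

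Klk1b3 and Klk1b4 are, like other Klk1b genes, known mostly from the mouse submandibular gland. The log2 ratio of Klk1b3 averaged 0.04 ± 0.90 in Ezh2-KO, 0.95 ± 0.47 in Ezh1-het, -0.54 ± 0.37 in double knockouts and -0.19 ± 0.68 in controls (SD, n = 4 each), and 1 control, control 2 at 0.69, lay among the Ezh1-het values. That of Klk1b4 averaged 0.20 ± 0.66 in Ezh2-KO, 0.86 ± 0.42 in Ezh1-het, -0.41 ± 0.16 in double knockouts and -0.35 ± 0.34 in controls (SD, n = 4 each). Klk1b4 was well above background on all 4 Ezh2-KO and all 4 Ezh1-het arrays, on none of the double knockouts and on 2 of 4 controls, so its double knockout level is only a bound. The bound was at least 1.53-fold lower in double knockouts than in Ezh2-KO (adjusted p 0.375 by limma) and at least 2.43-fold lower than in Ezh1-het (adjusted p 0.0713), and neither passed the test. No bound is given against controls, themselves near background.

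Klk1b24 averaged 0.09 ± 0.82 in Ezh2-KO, 0.92 ± 0.45 in Ezh1-het, -0.43 ± 0.20 in double knockouts and -0.21 ± 0.43 in controls (log2 ratio, SD, n = 4 each). This probe was not well above background on Ezh2-KO 1, double knockout 4 and control 3, so its lowest values are only bounds. Klk1b22, first described in mice as an epidermal growth factor-binding protein, moved less. Its 16 log2 ratios spanned 1.09 units, averaging -0.06 ± 0.39 in Ezh2-KO, 0.41 ± 0.21 in Ezh1-het, -0.06 ± 0.22 in double knockouts and 0.01 ± 0.30 in controls (SD, n = 4 each). Ezh2-KO 1 and double knockout 4 were not well above background for Klk1b22. Klk1b21 spanned 0.49 units in all, with group means between -0.05 in controls and 0.09 in Ezh2-KO.

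**Figure D1:**
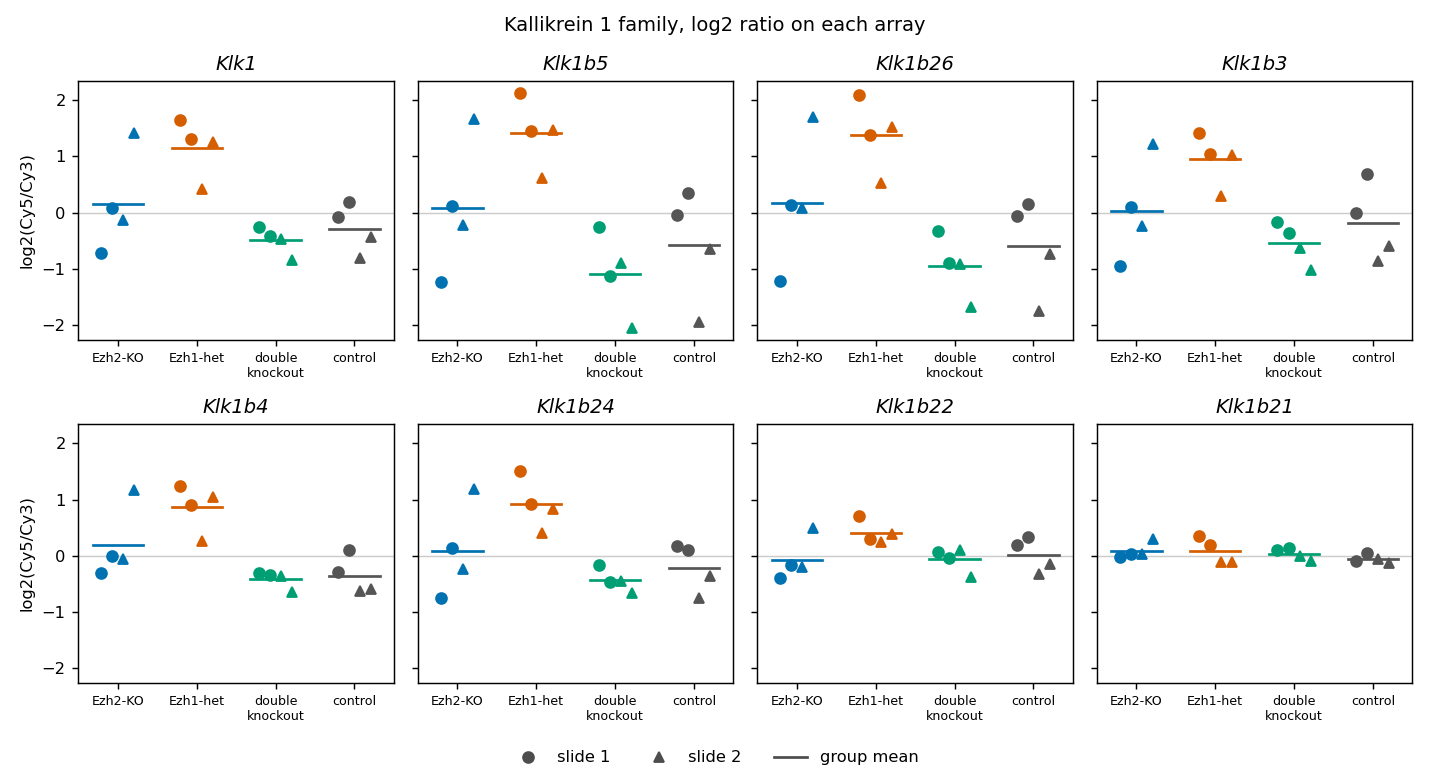
Log2(Cy5/Cy3) of the 8 measured family probes (vertical axis) on each of the 16 arrays, by genotype, with circles for slide 1, triangles for slide 2 and a line at each group mean. In the first 6 panels the 4 Ezh1-het arrays sit above 0 and the Ezh2-KO arrays are spread, with replicate 4 high. Klk1b22 has a narrower range, and Klk1b21 stays near 0.

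The arrays offered a measure of the spread between hybridisations, because the same RNA of control 1 was hybridised 16 times in Cy3. Spread from taking each kidney and its RNA is not part of that measure. Signals were first scaled between arrays. The SD of the log2 Cy3 signal over 16 arrays was 0.108 to 0.155 for the 8 measured family probes (median 0.127), near the median of 0.10 over all 34732 measured probes. In Cy5, which held 16 different kidneys, the SD was 0.183 to 1.36 for the family (median 0.839), against a median of 0.181 over all probes. Klk1b5 had an SD of 1.36 in Cy5 and 0.129 in Cy3, and Klk1 one of 0.929 in Cy5 and 0.124 in Cy3. Klk1b22 had an SD of 0.310 in Cy5 and 0.108 in Cy3. Klk1b21 was the exception, with 0.183 in Cy5 and 0.155 in Cy3.

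**Figure D2:**
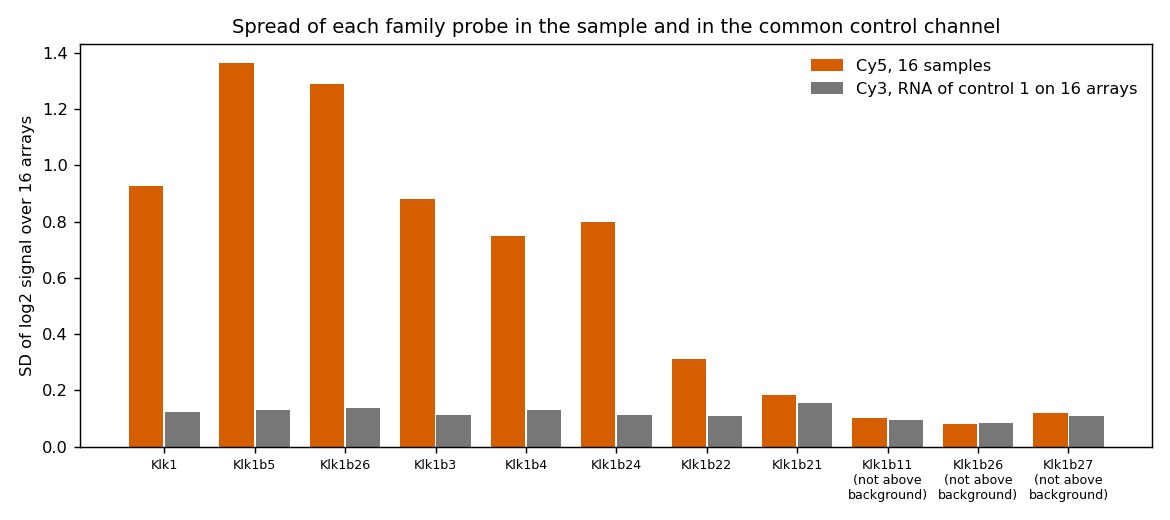
SD of the log2 signal over 16 arrays (vertical axis) for the 11 family probes, in Cy5 (16 kidney samples) and in Cy3 (RNA of control 1 on every array). Cy5 exceeds Cy3 several-fold from Klk1 to Klk1b24, and the 2 channels are alike for Klk1b21 and the 3 probes not above background.

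The widely varying members moved together from kidney to kidney. Among Klk1, Klk1b3, Klk1b4, Klk1b5, Klk1b24 and Klk1b26, the 15 pairs had Pearson correlations of 0.94 to 0.99 over the 16 arrays, and of 0.88 to 0.99 once each genotype's mean was removed. Klk1b22 correlated with these 6 at 0.84 to 0.91 despite its narrow range, and Klk1b21 with the other 7 at 0.56 to 0.63. The points share the Cy3 RNA and possibly signal between paralogs, and the correlations are given as a description. Outside the 10 members, the array held probes for Klk1b1, Klk1b8, Klk1b9 and Klk1b16. Only that of Klk1b8 was measured, on 15 arrays above background, and of the 15638 measured genes outside the 10 members it was the one most like Klk1 (r = 0.99). Klk1b8 averaged 0.19 ± 0.57 in Ezh2-KO, 0.77 ± 0.40 in Ezh1-het, -0.32 ± 0.14 in double knockouts and -0.15 ± 0.31 in controls (log2 ratio, SD, n = 4 each).

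Ezh1-het kidneys against controls gave the comparison from which the family was chosen. The difference in log2 ratio was 1.45 (SE 0.35) for Klk1, 1.99 (SE 0.56) for Klk1b5, 1.98 (SE 0.52) for Klk1b26, 1.22 (SE 0.27) for Klk1b4 and 1.12 (SE 0.32) for Klk1b24. In fold terms these were 2.73 for Klk1, 3.96 for Klk1b5 and 3.94 for Klk1b26. Klk1b3 differed by 1.14 (SE 0.39), Klk1b22 by 0.39 (SE 0.18) and Klk1b21 by 0.14 (SE 0.11). At limma's adjusted p under 0.05, 5 of the 8 measured probes were called higher, and 4% of all 34732 probes were (6.35% in either direction). In those 5 no Ezh1-het array overlapped a control, which held for 9.47% of all probes in that direction. The median difference of the 8 probes was 1.18, against 0.01 over all probes. Since this contrast chose the family, nothing is read from these counts. They also rested on few arrays: the count was 0 without Ezh1-het 4, 1 without Ezh1-het 1, Ezh1-het 2, control 3 or control 4, and 0 without control 2 and control 3 together. With the scanner software's own ratio the Klk1 difference was 2.38 and 1 member was called. Within slides the median difference was 1.12 on slide 1 and 1.33 on slide 2.

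Double knockouts against Ezh1-het compared loss of both Ezh1 alleles with loss of 1, on the same Ezh2 deletion. The log2 difference was -1.65 for Klk1 (SE 0.35, 95% interval -2.40 to -0.91), -2.50 for Klk1b5 (SE 0.56), -2.34 for Klk1b26 (SE 0.52) and -1.49 for Klk1b3 (SE 0.39). None of the 8 passed the limma test after Benjamini-Hochberg adjustment over all probes, where 0.17% of probes were called. The adjusted p of Klk1 was 0.0750, and the lowest, 0.0713, was that of Klk1b4, whose double knockout level is only a bound. At an unadjusted p under 0.05 there were 7, against 11.4% of all probes. In 7 of 8, all but Klk1b21, every double knockout array lay below every Ezh1-het array, which held for 6.39% of all probes. The medians within slides were alike, -1.51 on slide 1 and -1.33 on slide 2. These Ezh1-het arrays are the ones from which the family was chosen, so these counts are not independent of that choice. A fit of these 2 groups alone called 6 members and 1284 probes in place of 59, median centring called 1, and the software's own ratio put Klk1 at -3.25.

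Ezh1-het against Ezh2-KO asked what loss of 1 Ezh1 allele adds to the Ezh2 deletion. The log2 difference was 1.00 for Klk1 (SE 0.35, adjusted p 0.745 by limma), 1.34 for Klk1b5 (SE 0.56) and 1.21 for Klk1b26 (SE 0.52). None of the 8 passed, and 0.0317% of all probes did. At an unadjusted p under 0.05 there were 7, against 6.51% of all probes, and the groups overlapped in all 8. The Ezh1-het arrays are again those that chose the family, so nothing is read from this count. The slides gave different sizes, with a median difference of 1.58 on slide 1 and 0.15 on slide 2, where Ezh2-KO 4 lies. With the software's own ratio the Klk1 difference was 1.70.

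Between Ezh2-KO kidneys and controls no family probe passed limma's test. The control arrays also took part in the choice of the family, so this comparison is not independent of it. The Klk1 difference was 0.45 (SE 0.35, 95% interval -0.29 to 1.20). Leaving out 1 array put it between 0.03, without Ezh2-KO 4, and 0.74, without Ezh2-KO 1. None of the 8 passed limma's adjusted threshold, against 2.63% of all probes, and none reached an unadjusted p of 0.05, against 21.4%. The direction differed between slides: the median over the 8 was -0.49 on slide 1 and 1.19 on slide 2. Klk1b5 was -0.71 on slide 1 and 2.02 on slide 2.

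Between double knockouts and controls no family probe passed limma's test. Here too the control arrays are among those from which the family was chosen. Klk1 differed by -0.21 (SE 0.35, 95% interval -0.95 to 0.54), Klk1b5 by -0.51 (SE 0.56) and Klk1b26 by -0.36 (SE 0.52). None of the 8 passed limma's adjusted threshold, against 3.09% of all probes, and none reached an unadjusted p of 0.05, against 15.6%. The lowest adjusted p was 0.721. The Klk1 interval still allows a difference of nearly a log2 unit. The estimates depended on single arrays: without control 3 they were -0.38 for Klk1, -0.97 for Klk1b5 and -0.75 for Klk1b26. Without control 2 they were -0.05, -0.21 and -0.11 for the same genes, without double knockout 4 -0.09, -0.19 and -0.12, and without control 1 -0.14, -0.34 and -0.18. Without double knockout 1, Klk1b5 was -0.79 and Klk1b26 -0.57. The medians within slides were -0.42 on slide 1 and -0.01 on slide 2, and the software's own ratio put Klk1 at -0.87.

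Double knockouts against Ezh2-KO share no array with the comparison that chose the family. The log2 difference was -0.66 for Klk1 (SE 0.35, 95% interval -1.40 to 0.09, adjusted p 0.472 by limma), -1.16 for Klk1b5 (SE 0.56, adjusted p 0.420) and -1.13 for Klk1b26 (SE 0.52, adjusted p 0.394). None of the 8 passed, against 0.674% of all probes. At an unadjusted p under 0.05 there were 2, Klk1b4 and Klk1b26, against 12.1% of all probes. The median was -0.02 on slide 1 and -1.18 on slide 2. Without Ezh2-KO 4 the Klk1 difference was -0.24, without Ezh2-KO 1 it was -0.95, and with the software's own ratio it was -1.55.

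**Figure D3:**
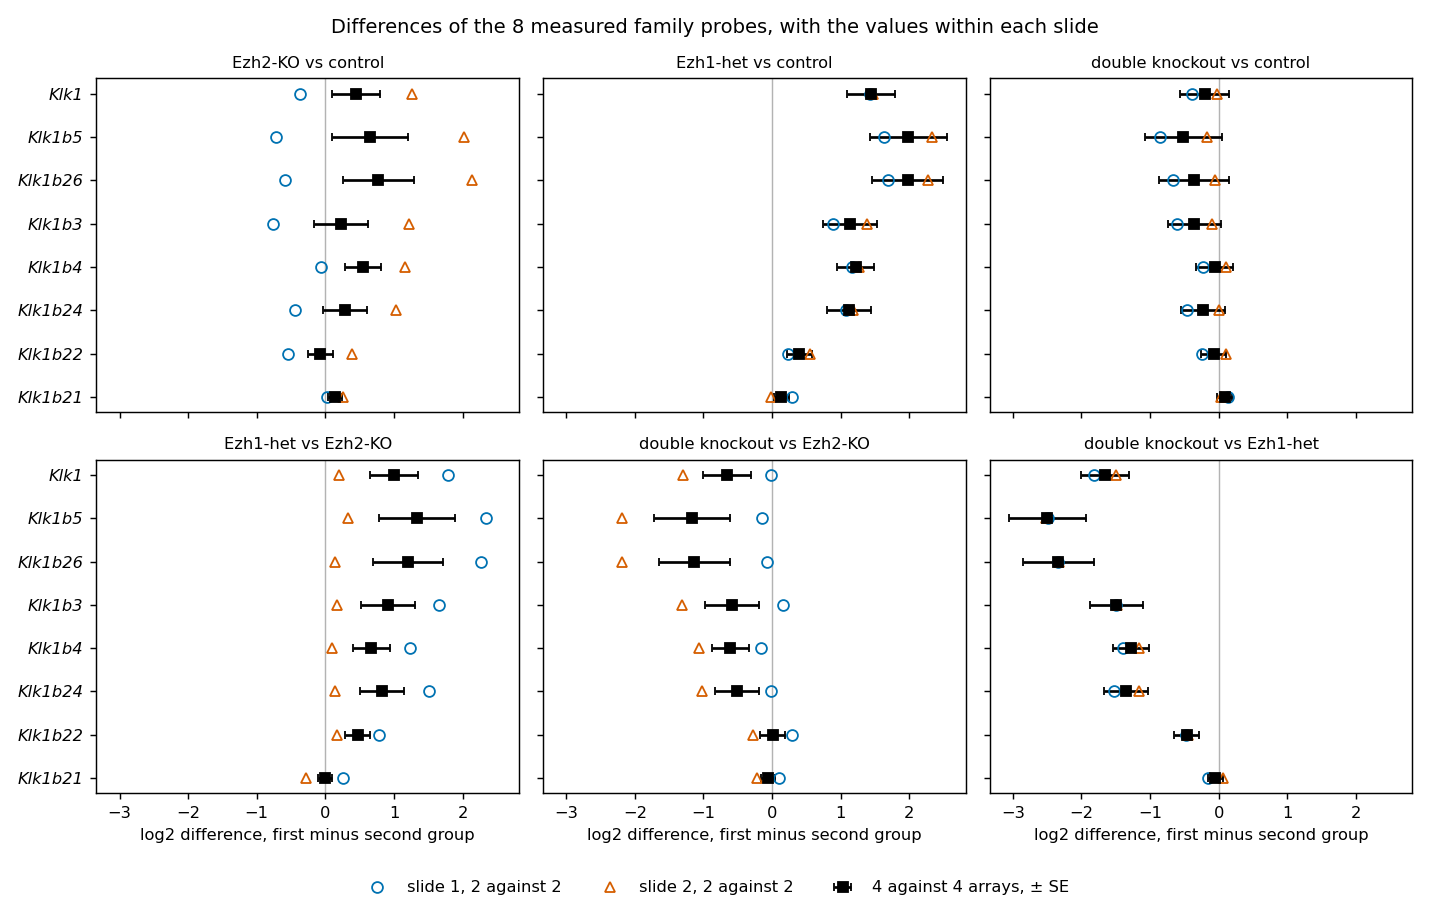
Log2 differences (horizontal axis, the first named group minus the second) of the 8 measured probes in the 6 comparisons, as squares with SE bars for 4 against 4 arrays, circles for slide 1 and triangles for slide 2. The 2 slides lie close together in Ezh1-het vs control and in double knockout vs Ezh1-het, and, for Klk1 to Klk1b24, far apart in the 3 comparisons with Ezh2-KO.

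The rest of the kallikrein-kinin pathway held 15 genes, of which 13 were measured and none passed the test in any of the 6 comparisons. Against controls, 2 reached an unadjusted p under 0.05 in Ezh2-KO, 4 in Ezh1-het, 3 in double knockouts, where 21.4%, 24.9% and 15.6% of all probes did in the same 3 comparisons. In Ezh1-het vs Ezh2-KO 1 did, against 6.51% of all probes, in double knockout vs Ezh2-KO 3, against 12.1%, and in double knockout vs Ezh1-het 6, against 11.4%. The median difference of the 13 in that last comparison was -0.23. The kininogens, the substrates that Klk1 cuts, followed the family across the arrays. Kng2 had log2 ratios of -0.84, -0.43, -0.26 and 0.86 in Ezh2-KO, 0.86, 0.66, -0.05 and 0.29 in Ezh1-het, -0.47, -0.78, -0.88 and -1.13 in double knockouts, and -0.12, 0.29, -0.90 and -0.62 in controls. Its correlation with the mean of the 8 family genes was 0.97 over 16 arrays, and that of Kng1, the other kininogen, was 0.91. The double knockout differed from Ezh1-het by -1.26 (SE 0.31, adjusted p 0.128 by limma) in Kng2 and by -2.49 (SE 0.60, adjusted p 0.118) in Kng1. The kinin-degrading enzymes Mme (r = 0.85), Cpn1 (0.82) and Ace (0.81) also tracked the family. The receptors did not: the correlation was 0.02 for Bdkrb2 and -0.36 for Bdkrb1. The mean of all 13 measured genes correlated with the family mean at 0.93. Genes named here can have been picked for such likeness, and correlations of the other measured genes are not reported here.

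Ren1 and Egf encode proteins that Klk1b enzymes of the mouse are known to process or bind, and of these 2 genes Ren1 passed a test and Egf did not. Ren1 was 0.70 higher in Ezh2-KO than in controls (SE 0.11, adjusted p 0.00395 by limma), and its correlation with the family mean was 0.24. Of the 12 other tissue kallikreins, Klk4 to Klk15, 5 were measured. Klk8, a kallikrein best known from brain and skin, was 0.52 higher in Ezh2-KO (SE 0.12, adjusted p 0.0285) and 0.56 higher in double knockouts (SE 0.12, adjusted p 0.0121) than in controls by limma, and showed no relation to the family mean (r = 0.02).

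Among the 15638 measured genes outside the 10 members, those most like the mean of the 8 family genes were Klk1b8 (r = 0.98), Car15, a membrane-bound carbonic anhydrase (0.97), Kng2 (0.97), Ihh, the hedgehog ligand (0.97), and Ptgds, a prostaglandin D2 synthase (0.96). Beside Klk1 alone, Cdhr5, a cadherin of the brush border, joined them (0.96). Car15 had log2 ratios of -1.25, -0.15, -0.22 and 1.11 in Ezh2-KO, 1.37, 1.08, 0.29 and 0.73 in Ezh1-het, -0.59, -1.19, -0.89 and -1.09 in double knockouts, and 0.09, 0.14, -1.03 and -0.83 in controls. As in the family, Ezh2-KO 4 was among the highest arrays and Ezh2-KO 1 and control 3 among the lowest. These genes were picked for their likeness over these arrays, and no test is given for them.

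**Figure D4:**
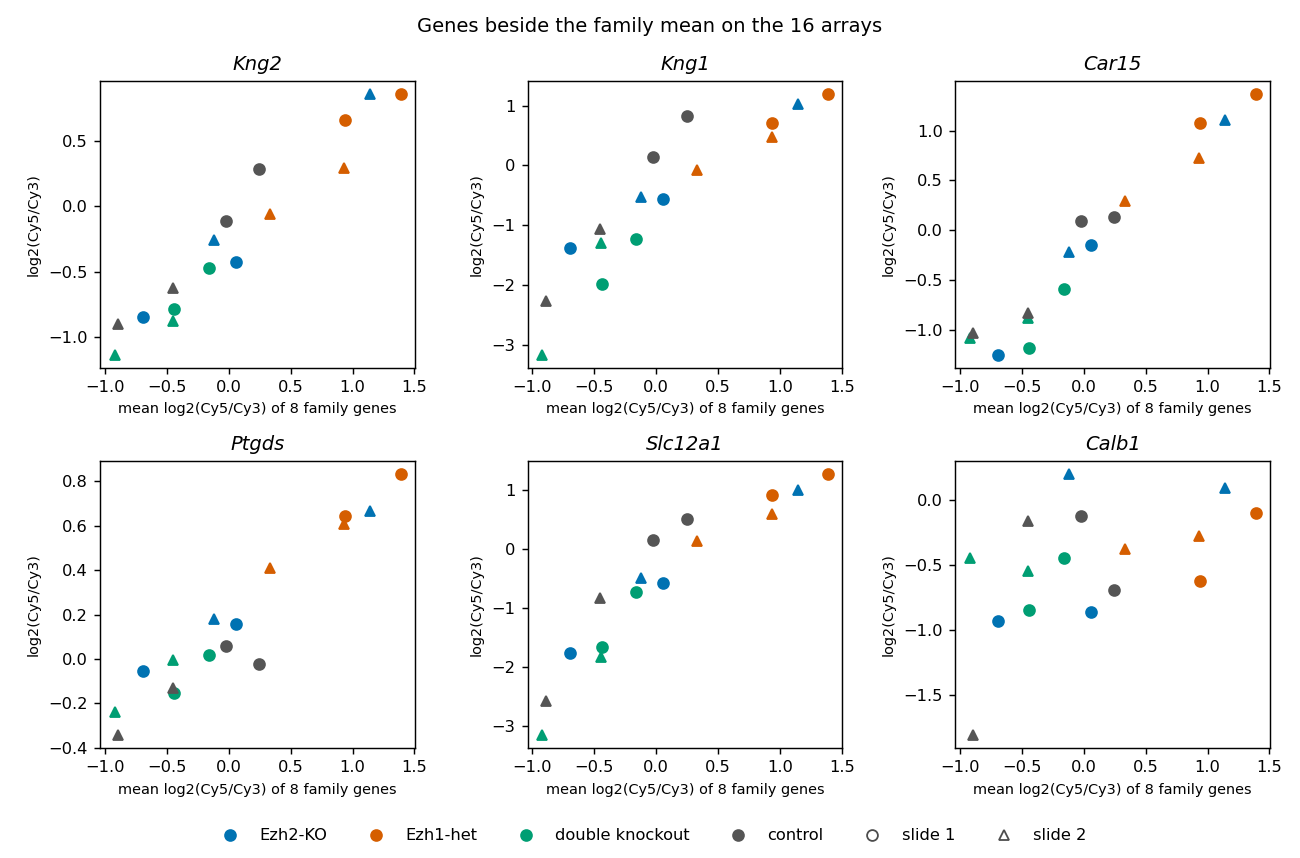
Log2(Cy5/Cy3) of 6 genes (vertical axes) against the mean log2(Cy5/Cy3) of the 8 family genes (horizontal axis) on the 16 arrays, coloured by genotype, with circles for slide 1 and triangles for slide 2. Kng2, Kng1, Car15, Ptgds and Slc12a1 rise along the family mean, while Calb1 (r = 0.50) scatters.

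Nephron segment markers moved with the family to different degrees. For the loop of Henle, all 10 markers were measured and their mean correlated with the family mean at 0.90. Slc12a1, the sodium-potassium-chloride cotransporter of the thick ascending limb, reached 0.93, with log2 ratios of -1.77, -0.58, -0.50 and 1.00 in Ezh2-KO, 1.26, 0.91, 0.13 and 0.58 in Ezh1-het, -0.74, -1.66, -1.83 and -3.14 in double knockouts, and 0.15, 0.50, -2.57 and -0.84 in controls. Of this list only Cldn16, a tight junction protein above background on 8 arrays, passed a test, 0.73 higher in Ezh1-het than in controls (SE 0.15, adjusted p 0.0104 by limma) and with a difference of -0.77 in double knockouts against Ezh1-het (SE 0.15, adjusted p 0.0441). At an unadjusted p under 0.05 there were 6 of the 10 loop genes in Ezh1-het vs control, against 24.9% of all probes, with a median difference of 0.75, and 5 in double knockout vs Ezh1-het, against 11.4%, with a median of -1.12. The lists of distal convoluted and connecting tubule (13 of 15 measured) and proximal tubule (13 of 14) had correlations of 0.88 and 0.80, and none of their genes passed in any comparison. In double knockouts against controls, 3 loop, 4 distal and 9 proximal genes reached an unadjusted p under 0.05, where 15.6% of all probes did. The median difference was 0.01 for the loop, -0.22 for the distal and -1.29 for the proximal list, beside -0.21 for the family. In double knockout vs Ezh1-het, 6 distal and 12 proximal genes did, where 11.4% of all probes did, with medians of -0.36 for the distal and -1.69 for the proximal list, beside -1.42 for the family.

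Within the distal list, Bsnd, which the thick limb shares, tracked the family (r = 0.93). Slc12a3, the thiazide-sensitive cotransporter that defines the distal convoluted tubule, tracked it less (0.64), as did Calb1, the calcium-binding protein of the connecting tubule (0.50). Calb1 also counts in the collecting duct list, and the mean of all 13 measured distal genes correlated at 0.88. The collecting duct list (13 of 14 measured) reached 0.71. Gata2 was its only called gene, 0.59 higher in Ezh1-het (SE 0.14, adjusted p 0.0249) and 0.79 higher in double knockouts (SE 0.14, adjusted p 0.00412) than in controls by limma. The summed Cy5 signal of the loop list ranged on the log2 scale from 10.38 to 13.15 in Ezh2-KO, 12.72 to 13.27 in Ezh1-het, 10.73 to 11.88 in double knockouts and 10.14 to 12.34 in controls. The part of such markers in the family's differences was not tested.

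Nephron progenitor markers, all 8 measured, ran the other way (r = -0.58). Cited1 fell by 0.69 in Ezh2-KO (SE 0.13, adjusted p 0.0110), by 0.79 in Ezh1-het (SE 0.13, adjusted p 0.00290) and by 0.90 in double knockouts (SE 0.13, adjusted p 0.000667) against controls by limma, a change present in all 3 groups. Crym was also called lower in all 3, and Meox1 in Ezh1-het.

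Other tissues that make kallikreins were checked through their markers. Measured were 3 of 7 salivary, 4 of 9 exocrine pancreas and 4 of 6 adrenal genes. None of them passed limma's test in any comparison. At most 1 per list reached an unadjusted p under 0.05, where 6.51% to 24.9% of all probes did, depending on the comparison. With so few genes, these counts cannot show that the lists were unchanged. The mean of the salivary list stayed between -0.11 and 0.17 on every array, with a correlation to the family mean of -0.16. That of the pancreas list correlated at 0.74, and its part was not tested. Of 7 measured neutrophil genes 4 were called higher in Ezh2-KO than in controls, where 2.63% of all probes were called in either direction. S100a9 was 2.44 higher than in controls (SE 0.54, adjusted p 0.0265 by limma), with a correlation of the list with the family of -0.18. Of 7 measured macrophage and immune genes only Cd74 was called against controls, and it was lower in all 3 mutant groups. The median difference of that list was positive each time: 0.24 (double knockout), 0.098 (Ezh1-het) and 0.25 (Ezh2-KO). The 4 measured erythroid genes were not called in any comparison (r = 0.48). In double knockouts 3 of them reached an unadjusted p under 0.05 against controls, against Ezh2-KO and against Ezh1-het. Of all probes 15.6%, 12.1% and 11.4% did so in these comparisons. The median differences of the 4 erythroid genes there were -0.98, -1.33 and -1.37. In the other comparisons none of the 4 reached that level. Genes that differ between male and female embryos, Xist (r = -0.29) and Eif2s3y (-0.08), were chosen after their values were seen. The log2 ratios of Xist were -1.98, -2.09, -1.21 and -1.46 in Ezh2-KO, -2.91, -2.89, -0.28 and -2.71 in Ezh1-het, -2.33, 0.04, -0.47 and -2.49 in double knockouts, and 0.30, -1.91, -2.49 and -0.29 in controls. The 4 Ezh2-KO kidneys were thus closer to each other (SD 0.42) than those of Ezh1-het (SD 1.28), double knockouts (SD 1.29) or controls (SD 1.32), each of which held both high and low arrays. Eif2s3y had SDs of 0.19 in Ezh2-KO, 0.58 in Ezh1-het, 0.90 in double knockouts and 0.60 in controls. The part of the embryos' sex in the family's differences was not tested.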

How the data were processed

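Total RNA of whole kidneys was hybridised to 16 Agilent 2-colour arrays. The deposited intensity values are median spot and background signals of each spot, made with Agilent Feature Extraction 10.7.3.1 per the file headers. The deposited log10 ratio column is that software's own processed Cy5 over Cy3. The authors' value table holds the same log10 ratio, rounded. Groups, replicate numbers and dyes came from the labels. No dyes were swapped, so a dye effect cannot be told apart from a shift shared by all samples against control 1.

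Here, limma 3.58.1 in R 4.3.3 corrected background (normexp, offset 50) and normalised each array by loess. Control spots and outlier spots were left out, and spots of a probe were averaged. Probes that at least 4 arrays had well above background in the Cy5 channel (34732 of 56605) entered 1 fit of all 16 arrays, with Benjamini-Hochberg adjustment within each of 6 comparisons. A fold bound is the smaller of that from signals scaled between arrays (Aquantile) and the fold of the log2 ratios. Symbols came from RefSeq accessions, promoters from RefSeq GRCm38.p6, and alignments from Biopython. The fit was tested on simulated data. Some genes of the lists are not reported here by name. Members and gene lists were chosen with earlier results of these data known. Named genes were all members, other Klk1-type genes, the called members of each list (otherwise its brightest or most alike members) and the 5 genes most like Klk1 or the family mean. Alternatives were another background correction and normalisation, filters, blocks for slide or replicate number, and left-out arrays.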

Additional observations from a re-analysis of the deposited data

Results flagged for a closer look

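Klk1b21 in the Ezh2-KO group was the single case, among 32 combinations of measured probe and genotype, in which 1 array stood apart from the other 3 by Dixon's criterion. Its log2 ratio was 0.295 in Ezh2-KO 4, and the gap to the next array made up 0.835 of the group's range. Chance alone gives about 1 such case in 20. Ezh2-KO 4 was also the highest Ezh2-KO array of the other 7 measured probes.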

How the results depend on the processing

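The 4 comparisons other than Ezh1-het vs control and double knockout vs Ezh1-het had 0 called family probes under every alternative run and without each replicate in turn. For Ezh1-het vs control, the count of called probes (5 in the main setting) was 1 with the software's own processed ratio, 3 with no filter on dim probes, 3 with the replicate number as a block, 0 without control 2 and control 3, 2 with trend and robust variance, and 6 with median centring, where Klk1 differed by 1.79. Leaving out 1 array gave counts of 0 to 5 and Klk1 differences of 1.27 to 1.69. The family was chosen from this comparison, so its calls are a description and carry no test. The Klk1 difference lost its call with the software's ratio (2.38) and without control 2 and control 3 (1.42), and also in 5 of 8 fits that left out 1 array: without Ezh1-het 1, Ezh1-het 2, Ezh1-het 4, control 3 or control 4. For double knockout vs Ezh1-het, the count (0) was 1 with median centring and 6 in a fit of only the 2 groups compared, where Klk1 at -1.65 was called. The cause of these changes was not tested. The slide as a block changed no call among the members. The labels do not say whether replicate numbers pair the samples, and the arrays gave no clear sign of it. Of 24 same-numbered pairs of arrays 7 correlated above 0.1, and the correlations ran from -0.41 to 0.50. Of 16 arrays 5 correlated best with their own number. With 4 arrays per group this check cannot exclude pairing. Apart from 3 in place of 5, the replicate block left every count of called members as it was.

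Reversals concerned small values that were not called. In Ezh2-KO vs control, leaving out 1 array put Klk1b22 at -0.27 to 0.032, Klk1b3 at -0.17 to 0.55 and Klk1b24 at -0.072 to 0.57. In double knockout vs control it put Klk1b4 at -0.15 to 0.092 and Klk1b22 at -0.18 to 0.037. In Ezh1-het vs Ezh2-KO Klk1b21 ran from -0.10 to 0.061. In double knockout vs Ezh2-KO Klk1b21 ran from -0.092 to 0.012 and Klk1b22 from -0.10 to 0.20. In double knockout vs Ezh1-het Klk1b21 ran from -0.12 to 0.043. Without control 2 and control 3, Klk1b4 was 0.031 in double knockout vs control. With median centring Klk1b22 was -0.020 in double knockout vs Ezh2-KO, and with the software's ratio Klk1b21 was 0.077 in double knockout vs Ezh1-het.

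Median centring put the median difference of all probes at 0.22 for Ezh2-KO, at 0.24 for Ezh1-het and at 0.25 for double knockouts against controls, where loess put each within 0.02 of 0. It called 10099 probes in Ezh2-KO (93.4% higher), 13243 in Ezh1-het (90.5%) and 10073 in double knockouts (94.97%), where loess called 913 (63.6%), 2206 (63.0%) and 1074 (78.2%). Without control 2 and control 3 Ezh2-KO had 144 called probes, Ezh1-het 348 and the double knockout 638. Fits of only the 2 groups called 133 probes in Ezh2-KO and 639 in double knockouts against controls, 127 in double knockout vs Ezh2-KO and 3 in Ezh1-het vs Ezh2-KO. Probes near background, among them Klk1b4 in double knockouts, limit what the low end of the family's range can show.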
